A study of Mus musculus with 26 samples.

Results

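EML cells, a mouse haematopoietic line that grows in stem cell factor and has erythroid, myeloid and lymphoid potential, were sorted in 2 ways, and in each sort a fraction with high Cd34 RNA was paired with a fraction with less. In the first sort the pair was CR Sca1lo and the first EryCP samples, with 3 arrays each. In the second sort the pair was CD34+ CD103- and CD34- CD103-, with 4 arrays each, and neither is labelled Epo (erythropoietin). These 14 of the 26 arrays of the series were chosen by their labels. For every gene, the first step (EryCP minus CR Sca1lo) and the second step (CD34- CD103- minus CD34+ CD103-) were estimated within their own array set. The second was then subtracted from the first, and this double difference asks which genes change by a different amount, or in a different direction, in the 2 sorts.

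All 4 groups are labelled as fractions of EML cells, although the titles of the second sort read EMLe2, which the labels do not explain. The cells were grown in IMDM with horse serum and conditioned medium that supplied stem cell factor. Per the labels, the gates used Sca1 (the product of Ly6a), CD34 and cKit, and the second sort also used CD103 (the alpha E integrin, product of Itgae). Both groups of the second sort were CD103-. The first sort carries no CD103 gate in its labels, and its starting group was Sca1lo. The sources used here do not give the gate cutoffs, what CR and EryCP stand for, or whether separate cultures were sampled, so the p-values measure the spread between these samples, which may be technical. EML cells were made from mouse bone marrow with a dominant-negative retinoic acid receptor alpha, which all 4 groups carry, and they are a model of progenitors in culture.

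CD34 is a surface sialomucin of blood stem and progenitor cells that is lost as cells commit to a lineage. Erythroid, megakaryocyte, mast cell and basophil progenitors share the transcription factors GATA1 and GATA2, which bind the letters GATA flanked by A or T and A or G. Mast cells and basophils store histamine and serine proteases in granules and carry the high-affinity IgE receptor, while red cell precursors make globin, heme and a set of blood group membrane proteins. Neutrophil and monocyte progenitors instead make lysozyme, myeloperoxidase and other granule proteins.

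Each group's arrays resembled each other closely, with correlations of 0.975 to 0.996 over the genes tested. The 75th percentile of the processed signal, to which each array was scaled, was 648.8 to 1034 in the first sort and 869.4 to 1247 in the second, and 81.3% to 93.8% and 84.5% to 87.6% of probes were well above background. The first sort was noisier, with a median within-group SD of 0.34 on the log2 scale against 0.21, and the fit weighted its arrays at 0.518 against 1.64. Each slide of the first sort held 1 array of either group, and the slides of the second sort also held both groups. The sorts lie on different slides and were read by different scanner software versions, so sort and array set cannot be told apart. All levels below are log2 signals relative to the array's 75th percentile, and all steps and double differences are on that log2 scale, given as an estimate ± its SE. An adjusted p is that of limma's moderated test with Benjamini-Hochberg adjustment over the 27735 genes tested. Since RNA was measured in bulk, fewer cells of a type and less RNA per cell cannot be told apart in any of these results.

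The 2 pairs differed in how far Cd34 RNA, the product of a gated marker's gene, fell. Cd34 stood at 6.27, 6.34 and 6.05 in CR Sca1lo and at 1.28, 1.15 and 2.07 in EryCP, a fall of 26.3-fold. In the second sort it stood at 7.04, 6.72, 6.77 and 6.80 in CD34+ CD103- and at 5.17, 5.18, 4.59 and 5.25 in CD34- CD103-, a fall of 3.44-fold. The groups did not overlap in either sort, and the cells labelled CD34- in the second sort kept a Cd34 level above that of EryCP. The double difference of Cd34 was -2.94 ± 0.35 (adjusted p = 0.00498). The gates of both sorts used CD34, so the direction of neither step is a finding. The size of each fall depends on gate cutoffs that are not given. The gates and a difference between the sorts therefore cannot be told apart for Cd34.

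Itgae rose in both sorts, although both groups of the second were CD103-. It stood at -0.30, -0.46 and -0.31 in CR Sca1lo and at 3.53, 3.10 and 3.29 in EryCP, which is 12.6-fold higher. In the second sort it stood at -1.76, -1.37, -1.81 and -1.92 in CD34+ CD103- and at -0.05, -0.30, -0.02 and -0.37 in CD34- CD103-, which is 2.89-fold higher. All 4 CD34- CD103- arrays lay below the EryCP arrays and near the CR Sca1lo arrays. The step was larger in the first sort by 2.13 ± 0.28 (adjusted p = 0.00792). Both groups of the second sort were gated on the product of Itgae, and the labels of the first give no such gate. The gate and a difference between the sorts therefore cannot be told apart for this gene. Ly6a did not pass the test in either step, at -0.84 (adjusted p = 0.0588) and -0.35 (adjusted p = 0.0633). In a fit with the slide as a block, which compares arrays of the same slide, both steps were called (adjusted p = 0.00138 and 0.0381). Over 6 other scalings and background corrections they were called in 3 and 1. The level of Ly6a separated the sorts, at -1.49 to -1.32 in CR Sca1lo and 3.49 to 3.75 in CD34+ CD103-. Kit, the receptor for stem cell factor, changed by 0.56 and 0.33, and neither step passed the test (adjusted p = 0.314 and 0.0833). With the slide as a block its first step was called and its second was not (adjusted p = 0.0241 and 0.157).

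The first step called 1280 genes (4.62% of those tested), of which 706 rose (2.55%) and 574 fell (2.07%), and the second called 3336 (12%), of which 1512 rose (5.45%) and 1824 fell (6.58%). Of the 1189 genes called in both, 1185 moved the same way (4.27% of the genes tested) and 4 moved oppositely (0.0144%), namely Lyz1, Lyz2, Nupr1 and Suox, a sulfite oxidase gene chosen after its values were seen. Over all 27735 genes the steps correlated at r = 0.716 (rho = 0.528) and 70.4% had the same sign. Over the 3336 genes called in the second step, they correlated at r = 0.889, 97.1% had the same sign, and the slope of the first on the second was 1.03. These are descriptions across genes, which are not independent replicates. Of the genes called in both, 91.7% had the larger step in the first sort, but the first step's SE was larger, with a median of 0.31 against 0.15, so that a gene had to move further to be called there. Of the 3336 genes called in the second step, whether or not also in the first, 62.9% had the larger step in the first sort.

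**Figure D1:**
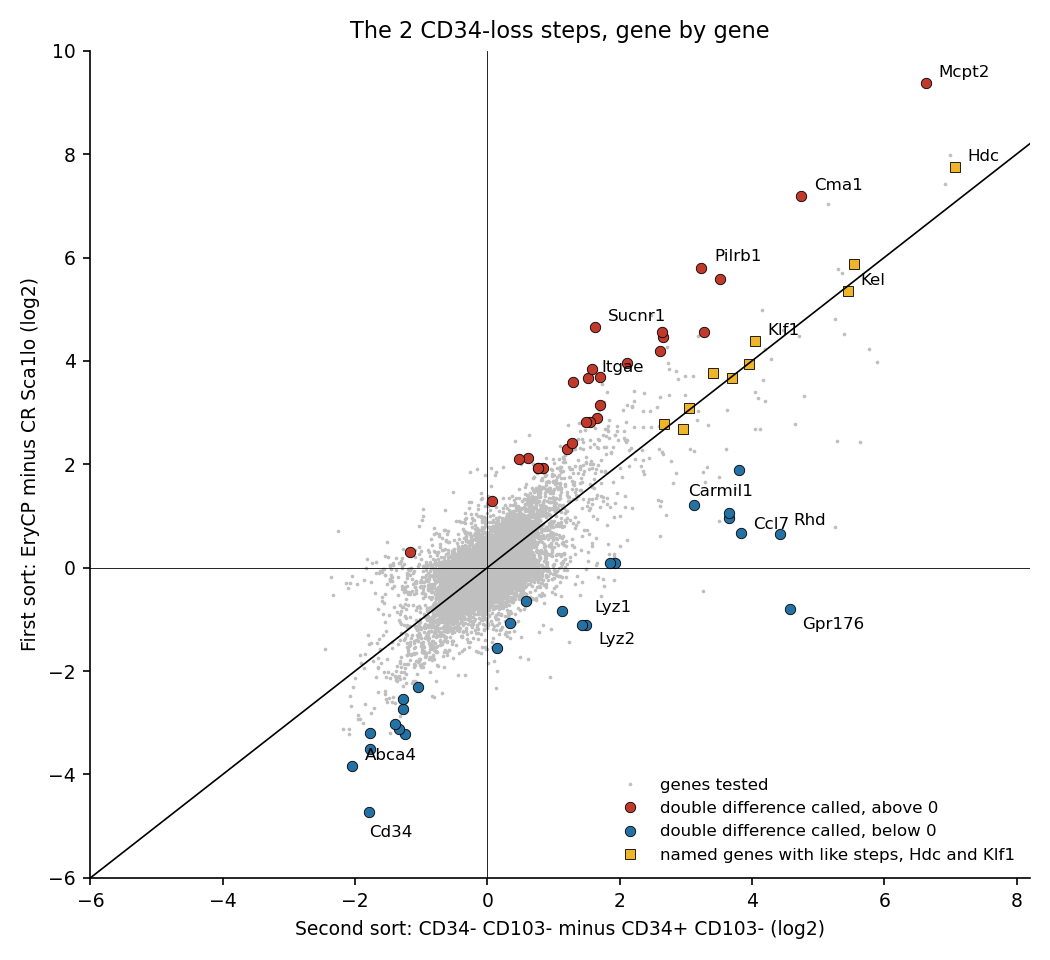
The step of each gene in the first sort (EryCP minus CR Sca1lo) plotted against its step in the second (CD34- CD103- minus CD34+ CD103-), both in log2 units, with the line of equal steps. Genes called in the double difference are marked, and Lyz1 and Lyz2 lie below 0 in the first sort and above 0 in the second.

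The double difference called 52 genes (0.187% of those tested), and 883 had an unadjusted p under 0.05. It was above 0 for 27 (0.0973%) and below 0 for 25 (0.0901%), and 44 of the 52 have a symbol. In 25 of the 27 the gene rose in both sorts and rose more in the first. The exceptions were Mmp14, a membrane matrix metalloproteinase called in the first step only, at 1.29 against 0.07, and Evl, an actin regulator called in the second only, at 0.30 against -1.16; both were chosen after their values were seen. Of the 25 below 0, 10 fell in both sorts and fell more in the first, 3 rose in both and rose more in the second, 3 moved in opposite directions, 1 was called in the first step only and 8 in the second only. Of these 8, 3 (Gpr176, Rhd and a probe without a symbol) entered the test only through CD34- CD103-, where they are high. Their calls are no support for a difference between the sorts. With the slide as a block, which compares arrays of the same slide, 380 genes were called (1.37%), 204 above 0 (0.736%) and 176 below 0 (0.635%), and they included 51 of the 52. The number of calls fell when slides of either sort were left out and with another background correction. Without slide 3, which held CR Sca1lo 1 and EryCP 1, no gene passed (317 at an unadjusted p under 0.05), without slide 1 12 did, and without slide 6, which held arrays of the second sort, 10 did. With normexp background correction no gene passed (291 at an unadjusted p under 0.05), although all 52 kept their sign.

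A core of genes rose far in both sorts with no called double difference. Hdc, histidine decarboxylase, which makes histamine, stood at -1.58, -1.67 and -1.71 in CR Sca1lo and at 6.10, 5.94 and 6.24 in EryCP. In the second sort it stood at -2.67, -2.23, -2.65 and -2.80 in CD34+ CD103- and at 4.35, 4.50, 4.63 and 4.45 in CD34- CD103-. No arrays overlapped between the groups of a sort, and the steps were 215-fold and 134-fold, with a double difference of 0.68 and a 95% interval of 0.11 to 1.25 (adjusted p = 1). That interval excludes 0 and reaches beyond 1 log2 unit, so steps of like size are not shown for Hdc. Ms4a2, the beta chain of the high-affinity IgE receptor, rose by 3.95 and 3.96, and Cd200r3, an activating receptor of mast cells and basophils, by 3.77 and 3.41. Fcer1a, a further chain of the IgE receptor, did not pass the test in either step, at 0.73 and 0.26. The double difference had 95% intervals of -0.88 to 0.86 for Ms4a2 and -0.13 to 0.85 for Cd200r3. Cd200r3 was named because its interval lay within -1 to 1, so that interval is no separate support for steps of like size.

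Erythroid genes were also in this core. Kel, which carries the Kell blood group, stood at -4.47, -4.83 and -3.47 in CR Sca1lo and at 1.36, 0.94 and 0.98 in EryCP. It stood at -5.31, -5.00, -5.38 and -5.52 in CD34+ CD103- and at 0.38, -0.12, 0.37 and -0.01 in CD34- CD103-. The groups were far apart in either sort, and the steps of 5.35 ± 0.36 and 5.45 ± 0.18 differed by -0.10, with a 95% interval of -0.98 to 0.77. Klf1, the erythroid Kruppel-like factor, rose by 4.38 and 4.04, Hbb-bh1, an embryonic beta-like globin, by 3.66 and 3.70, and Car1, carbonic anhydrase 1, by 3.10 and 3.05. Not every erythroid marker rose: Hbb-bt, at -0.61 and -0.27, and Slc4a1, at -0.27 and -0.12, did not pass the test in either step. The intervals of the double difference were -0.95 to 1.63 for Klf1, -0.96 to 0.89 for Hbb-bh1 and -0.82 to 0.91 for Car1. That of Klf1 reaches beyond 1, so steps of like size are not shown for it. Of the 87 genes that rose by at least 2 in both sorts, 18 had an interval of the double difference within -1 to 1. They include Clec10a, a galactose-binding lectin, at 5.88 and 5.54, Rab32, a small GTPase of lysosome-related organelles, at 2.68 and 2.96, and Tmem9 at 2.79 and 2.67. Kel, Car1, Clec10a, Rab32 and Tmem9 were named by that interval, so it is no separate support for likeness. Over 6 other scalings and background corrections the double difference ran from -0.99 to 0.59 for Kel and from -1.13 to 0.75 for Clec10a.

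Among the transcription factors and the receptor that define the erythroid and mast cell branches, Gata1, Gata2, Epor and Gfi1b rose in both sorts. Zfpm1 did not, and whether the small rise of Tal1 was called depended on the setting. Gata1 stood at -1.53, -1.94 and -1.45 in CR Sca1lo and at 2.14, 2.09 and 2.26 in EryCP. In the second sort its 4 arrays stood between -2.11 and -1.78 before and at 1.14, 0.72, 1.06 and 0.68 after. Its groups did not overlap, and the steps were 3.81 ± 0.25 and 2.86 ± 0.12, with a double difference of 0.95 ± 0.27 that did not pass the test (adjusted p = 0.49, and 0.0914 with the slide as a block). With quantile normalization over the 14 arrays it was 1.17 and was called (adjusted p = 0.0283), the 1 setting of 36 that called it. Gata2 rose by 2.33 and 1.79, Epor, the erythropoietin receptor, by 2.71 and 2.21, and Gfi1b, a repressor needed for red cells and platelets, by 1.40 and 1.21. Tal1, a partner of GATA factors, did not pass in either step, at 0.33 and 0.29. With the slide as a block both of its steps were called (adjusted p = 0.0107 and 0.00918). Over 6 other scalings and background corrections they were called in 2 and 3. Zfpm1, the cofactor FOG1, was at -0.54 and -0.11, and its double difference of -0.42 was called only with the slide as a block (adjusted p = 0.0396 against 1).

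The promoters of genes in this core and of genes whose step differed between the sorts were read on both strands for GATA with A or T before it and A or G after it, as in TGATAA, in the 250 bases before the RefSeq start (GRCm38.p6). They are shown for Ms4a2 and Kel, which moved alike, and for Cma1 and Slc6a4, which rose more in the first sort, with the matches in capitals.
Ms4a2, chr19:11623720-11623969, minus strand: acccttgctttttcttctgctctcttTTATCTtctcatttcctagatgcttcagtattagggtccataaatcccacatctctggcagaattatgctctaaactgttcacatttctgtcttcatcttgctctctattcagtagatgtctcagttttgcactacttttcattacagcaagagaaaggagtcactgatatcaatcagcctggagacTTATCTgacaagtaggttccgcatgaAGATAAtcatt
Kel, chr6:41704326-41704575, minus strand: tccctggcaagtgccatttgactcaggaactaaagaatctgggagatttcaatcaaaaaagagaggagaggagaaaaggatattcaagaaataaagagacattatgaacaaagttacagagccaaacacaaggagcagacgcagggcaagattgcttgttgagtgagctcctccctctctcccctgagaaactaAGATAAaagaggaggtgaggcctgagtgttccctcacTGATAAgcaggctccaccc
Cma1, chr14:55944676-55944925, minus strand: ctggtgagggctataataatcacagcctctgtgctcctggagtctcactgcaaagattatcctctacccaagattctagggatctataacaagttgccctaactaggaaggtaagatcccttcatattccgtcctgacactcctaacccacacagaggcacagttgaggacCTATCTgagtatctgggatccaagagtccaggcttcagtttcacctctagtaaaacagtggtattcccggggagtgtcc
Slc6a4, chr11:76998347-76998596, plus strand: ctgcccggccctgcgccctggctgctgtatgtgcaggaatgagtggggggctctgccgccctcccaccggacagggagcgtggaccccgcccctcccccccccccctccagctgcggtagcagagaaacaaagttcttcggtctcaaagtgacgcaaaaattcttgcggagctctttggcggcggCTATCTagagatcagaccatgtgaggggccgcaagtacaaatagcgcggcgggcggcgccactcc
The Ms4a2 window holds 3 matches, beginning 224, 37 and 11 bases before the start, and the Kel window holds 2, at 56 and 19 bases. Cma1 holds 1 at 79 bases and Slc6a4 1 at 65 bases. The printed genes were picked by hand and each holds a match, so they do not show how common a match is. Of the 27025 genes with a promoter in the table, 29.7% hold a match. It was held by 7 of 20 called genes with a double difference above 0 (35%), by 6 of 15 below 0 (40%), by 28.1% of 424 genes that rose in both sorts and by 20.7% of 305 that fell in both. A match is a description of these letters, and the shares of the called genes rest on few promoters.

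The 3 called mast cell and basophil proteases rose in both sorts and rose more in the first. Mcpt2, a chymase-like protease of mucosal mast cells, stood at -3.24, -3.21 and -3.25 in CR Sca1lo and at 6.22, 5.92 and 6.29 in EryCP. In the second sort it stood at -0.43, -0.13, 0.30 and -0.34 in CD34+ CD103- and at 6.42, 6.57, 6.44 and 6.47 in CD34- CD103-. The groups after CD34 loss lay close together, while CR Sca1lo lay about 3 log2 units below CD34+ CD103-. Mcpt2 rose 666-fold and 98.7-fold, a double difference of 2.75 ± 0.30 (adjusted p = 0.0026).

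Cma1, mast cell chymase, showed the same arrangement. It stood at 1.55, 1.78 and 1.00 in CR Sca1lo and at 8.79, 8.23 and 8.88 in EryCP, against 3.26, 3.44, 3.26 and 3.21 in CD34+ CD103- and 8.18, 7.92, 8.19 and 7.87 in CD34- CD103-. No arrays of a sort overlapped, and the lowest starting values were again those of CR Sca1lo. It rose 146-fold and 26.8-fold, a double difference of 2.44 ± 0.28 (adjusted p = 0.00321). Mcpt8, a protease of basophils, stood at 0.46, 0.60 and 0.28 and rose to 4.70, 4.46 and 4.78 in the first sort, and stood at 1.65, 1.86, 1.65 and 1.77 and rose to 4.32, 4.33, 4.52 and 4.21 in the second. Its 18.4-fold and 6.12-fold steps differed by 1.59 ± 0.20 (adjusted p = 0.00615), and again the starting groups lay further apart than the end groups.

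Of the 36 mast cell and basophil genes measured, 23 rose and none fell in the first sort, and 26 rose and none fell in the second. Among all genes, 2.55% rose and 2.07% fell in the first sort, and 5.45% rose and 6.58% fell in the second. The double difference called 3 of them above 0 (Mcpt2, Cma1 and Mcpt8) and none below 0, where 0.0973% and 0.0901% of all genes were called. Their median step was 1.81 in the first sort and 1.40 in the second, and their median double difference was 0.53, against -0.07, -0.06 and -0.01 over all genes. Over 6 other scalings and background corrections the median double difference of the list was 0.38 to 0.71, and 0 to 8 of its genes were called above 0 and 0 to 2 below. With the slide as a block 9 were called above 0 and 1 below. The members were not uniform, and their double differences ran from -3.20, which did not pass the test, to 2.75. Mcpt4, another chymase, rose by 7.97 and 6.99 (adjusted p of the double difference 1), Tpsb2, a tryptase, by 3.23 and 4.20, and Cpa3, carboxypeptidase A3, was at 0.09 and 0.10, already high in every group. Members named here beyond Mcpt2, Cma1, Mcpt8, Hdc, Ms4a2 and Cpa3 were chosen after their values were seen.

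**Figure D2:**
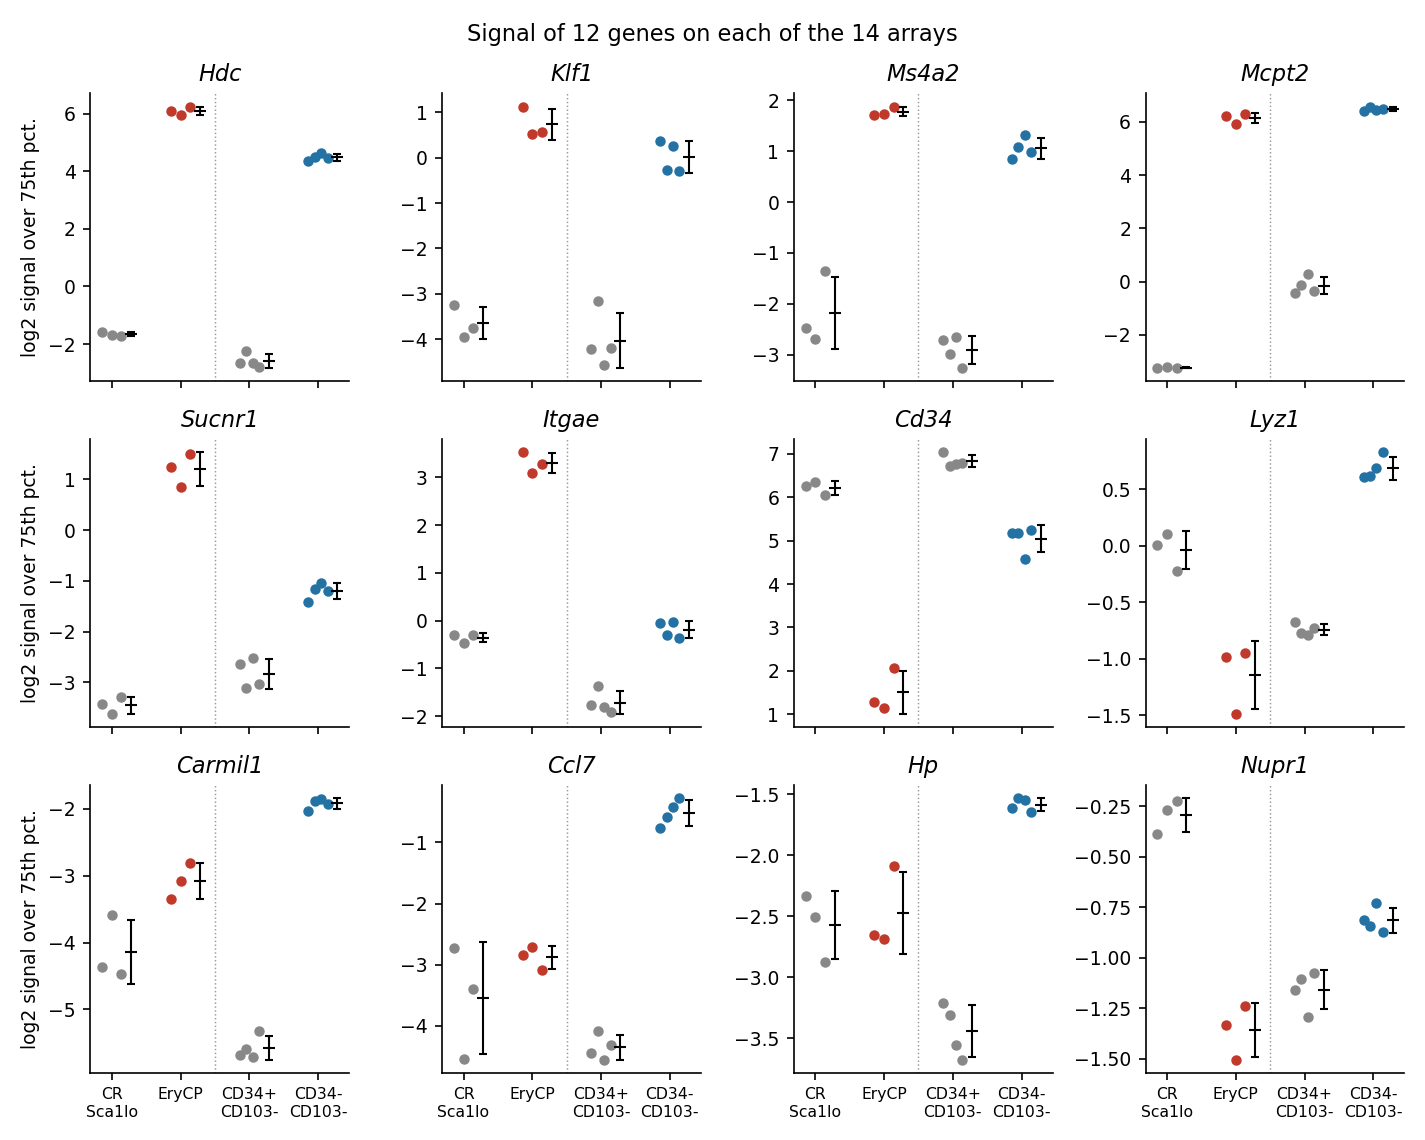
Levels of 12 genes on each of the 14 arrays, in log2 units relative to the array's 75th percentile, with the mean and SD of each group. Mcpt2 starts lower in CR Sca1lo than in CD34+ CD103- and ends at a like level, while Cd34 ends far lower in EryCP than in CD34- CD103-.

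The largest double difference above 0 was that of Sucnr1, the receptor for succinate. It stood at -3.44, -3.63 and -3.30 in CR Sca1lo and at 1.26, 0.85 and 1.51 in EryCP, and at -2.64, -3.12, -2.53 and -3.04 in CD34+ CD103- and -1.41, -1.16, -1.04 and -1.21 in CD34- CD103-. All 3 EryCP arrays lay above every CD34- CD103- array, whereas the starting groups were close. It rose 25.3-fold and 3.09-fold, a double difference of 3.03 ± 0.32 (adjusted p = 0.00259). In level, the gap between the sorts was wider after the step for Sucnr1 and wider before it for Mcpt2.

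A pair of immunoglobulin-like receptors of myeloid cells also rose more in the first sort. Pilrb1, an activating paired receptor, stood at -1.15, -1.12 and -1.27 in CR Sca1lo and at 4.75, 4.44 and 4.68 in EryCP, against 0.27, 0.32, 0.26 and 0.34 in CD34+ CD103- and 3.51, 3.44, 3.70 and 3.50 in CD34- CD103-. Its values were tight within every group, its start was lower and its end higher in the first sort, and its double difference of 2.57 ± 0.18 had the smallest adjusted p of the 52, 9.15e-05. Cd300lf, an inhibitory receptor of the CD300 family, rose by 3.83 ± 0.26 and 1.58 ± 0.13, but its 2 probes disagreed, with a double difference of 2.26 for the brighter one and -0.96 for the other. The call of Cd300lf therefore holds for 1 probe only.

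Slc6a4, the serotonin transporter, stood at -1.31, -1.17 and -1.34 in CR Sca1lo and at 4.47, 4.12 and 4.35 in EryCP, and at 0.54, 0.58, 0.82 and 0.64 in CD34+ CD103- and 4.03, 4.22, 4.16 and 4.20 in CD34- CD103-. The end groups nearly coincided and the starting groups did not, and the 48.1-fold and 11.4-fold steps differed by 2.08 ± 0.19 (adjusted p = 0.000735). Csf2rb2, the mouse beta chain used by the interleukin 3 receptor alone, rose by 3.95 and 2.11, with a double difference of 1.84 ± 0.25 (adjusted p = 0.00795). Csf2rb, the beta chain shared by the receptors for interleukin 3, interleukin 5 and GM-CSF, rose by 3.15 and 1.71, with a double difference of 1.44 ± 0.20 (adjusted p = 0.0117). Another Csf2rb probe gave 0.05, and because the beta chains are close paralogs, cross-hybridisation between their probes was not tested. These were the 2 called genes of 29 cytokine receptor and signalling genes, where 0.187% of all genes were called. Of the 29, 5 rose and 6 fell in the first sort and 6 rose and 8 fell in the second, with a median double difference of 0.04. Of all genes, 2.55% rose and 2.07% fell in the first sort and 5.45% rose and 6.58% fell in the second.

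Smaller differences in the same direction were seen for Pdcd1lg2, the ligand PD-L2 of the receptor PD-1, for Nxnl2, a thioredoxin-like protein, and for Mxd1, a partner of MAX that opposes MYC. Pdcd1lg2 rose by 2.11 and 0.48 (double difference 1.62 ± 0.26, adjusted p = 0.0242), Nxnl2 by 2.12 and 0.61 (1.51 ± 0.24, adjusted p = 0.0242) and Mxd1 by 2.82 and 1.55 (1.26 ± 0.20, adjusted p = 0.0229). Nlgn1, a synaptic adhesion protein, was not well above background on every array of either starting group, so that its steps are at least 8.74-fold and at least 1.72-fold. Its fitted double difference of 1.92 (adjusted p = 0.0291) is not bounded by these, and its sign turned in the deposited series table. Alas2, the first enzyme of erythroid heme synthesis, rose by 2.75 and 1.22, and its double difference of 1.54 ± 0.39 did not pass the test (adjusted p = 0.298). It was called in 4 of 36 other settings, among them the slide as a block (adjusted p = 0.0324) and both quantile normalizations (adjusted p = 0.0046 over the 14 arrays and 0.0104 within each set).

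Across the 25 genes that rose in both sorts and more in the first, the CR Sca1lo mean lay below the CD34+ CD103- mean for 20, and the EryCP mean lay above the CD34- CD103- mean for 23. The median gap was -0.76 before the step and 0.80 after it, first sort minus second. The 25 genes were chosen for a double difference above 0, which is the gap after the step minus the gap before it. A higher gap after than before is therefore built into the choice and is no separate result. These are differences of levels between array sets, which were not tested.

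Bcl3, Tcf7, Klra7 and Abca4 fell in both sorts and fell further in the first. Bcl3, an atypical inhibitor of the NF-kappa B family, stood at 2.28, 2.30 and 1.93 in CR Sca1lo and at -0.81, -1.22 and -0.84 in EryCP, against 2.90, 2.88, 2.64 and 2.78 in CD34+ CD103- and 1.61, 1.44, 1.27 and 1.52 in CD34- CD103-. Its starting groups were near each other and all EryCP arrays lay below all CD34- CD103- arrays, as for Cd34. It fell 8.73-fold and 2.53-fold, a double difference of -1.79 ± 0.23 (adjusted p = 0.00615).

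Tcf7, the Wnt-responsive factor TCF1 of lymphoid and early progenitors, stood at 0.09, 0.04 and 0.15 in CR Sca1lo and at -2.68, -2.72 and -2.51 in EryCP, and at -0.57, -0.71, -0.45 and -0.45 before and -1.79, -1.96, -1.87 and -1.67 after in the second sort. The start was higher and the end lower in the first sort, and the 6.63-fold and 2.42-fold falls differed by -1.45 ± 0.20 (adjusted p = 0.00889). It was the only called gene of 21 stem and progenitor transcription factors, where 0.187% of all genes were called. Of the 21, 8 fell and 1 rose in the first sort and 10 fell and 2 rose in the second, with medians of -0.43 and -0.41. The shares of all genes that fell and rose were 2.07% and 2.55% in the first sort and 6.58% and 5.45% in the second. Meis1, a homeodomain factor of stem cells, fell by 3.12 in the first sort and by 2.18 in the second, and the difference did not pass the test (adjusted p = 0.61); it was chosen after its values were seen. Klra7, the receptor Ly49G of natural killer cells, fell by 3.50 and 1.77 (double difference -1.73 ± 0.23, adjusted p = 0.00716). Abca4, a lipid transporter best known in the retina, fell by 3.84 and 2.04 (-1.79 ± 0.23, adjusted p = 0.00697), and it was well above background on 2 of the 3 EryCP arrays. In the deposited table neither difference passed the test, at -0.89 for Klra7 (adjusted p = 0.229) and -0.32 for Abca4 (adjusted p = 1).

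In the reported fit 3 genes were called in opposite directions with a called double difference, while with the slide as a block 13 were. Of the 3, 2 are the mouse lysozymes, enzymes of granulocytes and macrophages that cut bacterial cell walls. Lyz2 stood at 2.17, 2.39 and 1.98 in CR Sca1lo and at 1.21, 0.70 and 1.31 in EryCP, against 1.32, 1.21, 1.15 and 1.21 in CD34+ CD103- and 2.64, 2.62, 2.69 and 2.90 in CD34- CD103-. It fell in the first sort and rose in the second with no overlap in either, by -1.11 ± 0.20 (adjusted p = 0.00558) and 1.49 ± 0.10 (adjusted p = 3.82e-07). The double difference was -2.60 ± 0.23 (adjusted p = 0.000477).

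Lyz1 stood at 0.00, 0.11 and -0.22 in CR Sca1lo and at -0.99, -1.49 and -0.95 in EryCP, against -0.68, -0.77, -0.79 and -0.73 in CD34+ CD103- and 0.61, 0.62, 0.69 and 0.83 in CD34- CD103-. Its pattern is that of Lyz2 at lower signal, with steps of -1.10 ± 0.18 (adjusted p = 0.00267) and 1.43 ± 0.09 (adjusted p = 2.21e-07) and a double difference of -2.53 ± 0.20 (adjusted p = 0.000294). The genes are neighbours with closely alike transcripts, and cross-hybridisation between their probes was not tested, so they are not 2 independent observations. Over 6 other scalings and background corrections both kept a fall in the first sort and a rise in the second, but the fall passed the test in 3 of the 6. With normexp the first step was -0.58 for Lyz2 and -0.91 for Lyz1 where the median of all genes was -0.59, so that relative to all genes Lyz2 did not fall there.

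The 250 bases before the RefSeq starts of both genes show how alike they are, with the longest run shared at the same distance from the start in capitals.
Lyz1, chr10:117292869-117293118, minus strand: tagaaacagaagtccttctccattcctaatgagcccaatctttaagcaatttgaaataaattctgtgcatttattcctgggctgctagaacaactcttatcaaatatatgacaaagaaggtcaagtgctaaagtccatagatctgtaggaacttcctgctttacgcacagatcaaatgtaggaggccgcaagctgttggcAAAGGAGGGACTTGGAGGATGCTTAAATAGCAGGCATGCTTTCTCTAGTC
Lyz2, chr10:117282273-117282522, minus strand: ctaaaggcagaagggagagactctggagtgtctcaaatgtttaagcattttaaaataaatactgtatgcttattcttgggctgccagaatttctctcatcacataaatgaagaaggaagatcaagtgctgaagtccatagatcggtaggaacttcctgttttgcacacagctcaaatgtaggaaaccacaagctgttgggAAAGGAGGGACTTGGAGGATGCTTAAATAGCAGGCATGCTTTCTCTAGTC
Of the 250 positions 152 are identical at the same distance from the start (60.8%), and the shared run of 50 bases ends at the start itself. Lyz1 holds 1 GATA match, TTATCA, 154 bases before the start and left in lower case, and Lyz2 holds none.

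Nupr1, a small nuclear protein of the stress response, was the third. It stood at -0.39, -0.27 and -0.23 in CR Sca1lo and at -1.33, -1.50 and -1.24 in EryCP, and at -1.16, -1.10, -1.29 and -1.07 in CD34+ CD103- and -0.81, -0.84, -0.73 and -0.87 in CD34- CD103-. The groups did not overlap in either sort, although the rise in the second was only 1.27-fold. Its steps of -1.06 ± 0.15 and 0.34 ± 0.07 differed by -1.41 ± 0.17 (adjusted p = 0.00498), and the rise passed the test in 3 of the 6 other scalings and background corrections.

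The other neutrophil and granule genes moved unevenly. Of the 20 measured, 2 rose and 5 fell in the first sort, and 9 rose and 4 fell in the second. Among all genes, 2.55% rose and 2.07% fell in the first sort, and 5.45% rose and 6.58% fell in the second. Lyz1 and Lyz2 were the only called double differences, both below 0 (0.0901% of all genes), and 6 were called below 0 with the slide as a block. The median double difference was -0.37, and over 6 other scalings and background corrections it was -0.90 to -0.20. Mpo, myeloperoxidase of primary granules, stood at 8.65, 8.79 and 8.22 in CR Sca1lo and at 6.24, 5.45 and 6.17 in EryCP, and at 8.79, 8.83, 8.51 and 8.68 before and 7.59, 7.35, 7.36 and 7.39 after in the second sort. It started alike and fell further in the first sort, by -2.61 against -1.28, and the difference of -1.33 ± 0.27 did not pass the test (adjusted p = 0.114). It was called in 7 of 36 other settings, among them the slide as a block (adjusted p = 0.0027), both quantile normalizations and the deposited table (adjusted p = 7.99e-05). Members that rose in both sorts were also found, such as S100a9, a calcium-binding protein of neutrophils, at 4.49 and 4.70, which was chosen after its values were seen.

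**Figure D3:**
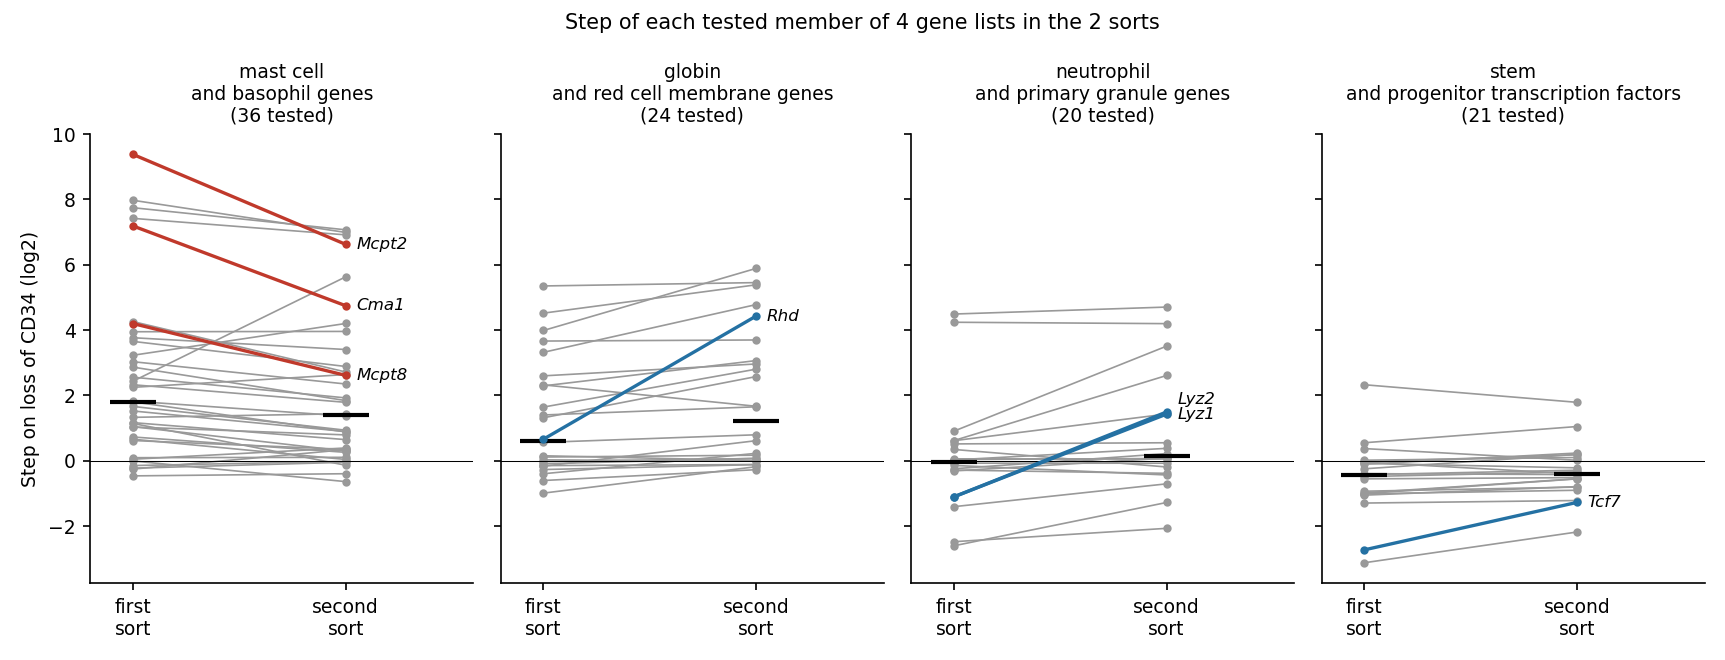
Steps of the members of 4 gene lists in the first and second sort, in log2 units, 1 point per gene, with bars at the list medians. The mast cell and basophil list has medians of 1.81 and 1.40, and the neutrophil list has Lyz1 and Lyz2 on opposite sides of 0 in the 2 sorts.

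Ccl7, Hp and Ifitm6 were called in the second step and not in the first, with a called difference between the steps. Ccl7, a chemokine that attracts monocytes, stood at -2.73, -4.53 and -3.39 in CR Sca1lo and at -2.84, -2.72 and -3.08 in EryCP, against -4.44, -4.08, -4.55 and -4.31 in CD34+ CD103- and -0.77, -0.59, -0.43 and -0.28 in CD34- CD103-. The first sort's groups overlapped and the second sort's did not, and the double difference was -3.16 ± 0.43 (adjusted p = 0.00889). Hp, haptoglobin, which binds free haemoglobin, stood at -2.34 to -2.88 in CR Sca1lo and -2.09 to -2.68 in EryCP, and rose from between -3.68 and -3.21 to between -1.65 and -1.54 in the second sort. Its double difference was -1.75 ± 0.27 (adjusted p = 0.0223). Ifitm6, of a family of interferon-induced membrane proteins, was at 0.09 ± 0.29 in the first sort and rose by 1.94 ± 0.14 in the second (-1.85 ± 0.32, adjusted p = 0.0441).

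Stfa2, an inhibitor of cysteine proteases, and Carmil1, which acts on actin capping protein, rose in both sorts and more in the second. Stfa2 rose by 1.90 ± 0.30 and 3.81 ± 0.14 (double difference -1.91 ± 0.33, adjusted p = 0.0427). Its double difference was called in 11 of 36 other settings, and its first step ran from 0.04 with normexp to 2.15 over the 6 other scalings and background corrections and was called in 4 of them. Carmil1 stood at -4.36, -3.59 and -4.47 in CR Sca1lo and at -3.35, -3.08 and -2.81 in EryCP, and at -5.69, -5.59, -5.70 and -5.32 before and -2.03, -1.88, -1.85 and -1.92 after in the second sort. Its groups were separate in both, and the double difference was -2.60 ± 0.28 (adjusted p = 0.0026), but its first step of 1.06 ± 0.26 was called in none of the 6 other scalings and background corrections and ran from -0.23 to 1.31 over them.

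Among platelet and megakaryocyte genes Ppbp, a platelet chemokine, stood at 1.18, 1.22 and 1.07 in CR Sca1lo and at 0.52, 0.36 and 0.65 in EryCP, and at -0.14, -0.12, -0.22 and -0.17 before and 0.45, 0.33, 0.63 and 0.29 after in the second sort. Its groups did not overlap in either sort, and its steps of -0.65 (adjusted p = 0.0535) and 0.59 (adjusted p = 0.000397) differed by -1.23 ± 0.19 (adjusted p = 0.0223). With the slide as a block both steps of Ppbp were called, in opposite directions (adjusted p = 0.000456 and 0.000462). Pf4, platelet factor 4, was at 0.65 and 1.54, with a double difference of -0.90 that did not pass the test (adjusted p = 0.536) but was called with the slide as a block (adjusted p = 0.0352) and in the deposited table (adjusted p = 0.0129). Ppbp was the only called double difference of the 19 genes of that list, where 0.187% of all genes were called. Of the 19, 4 rose and 2 fell in the first sort and 8 rose and 4 fell in the second. The shares of all genes that rose and fell were 2.55% and 2.07% in the first sort and 5.45% and 6.58% in the second. Cox6a2, the muscle form of a cytochrome oxidase subunit, was called in the first sort alone, with a fall of -1.55 ± 0.22 against a change of 0.15 ± 0.11 in the second (double difference -1.70 ± 0.25, adjusted p = 0.0141).

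The 2 lowest double differences came from genes near background. Rhd, the Rh blood group protein, was well above background on 1 of the 3 EryCP arrays and on all 4 CD34- CD103- arrays, where it stood at -4.48, -4.86, -3.72 and -4.27. It was not well above background on every array of any other group, and its second step is at least 5.11-fold. Gpr176, an orphan G protein-coupled receptor, was well above background on the 4 CD34- CD103- arrays alone, at -4.45, -4.12, -4.82 and -4.14, and its second step is at least 4.94-fold. Fitted double differences of -3.77 (adjusted p = 0.0222) and -5.36 (adjusted p = 0.00259) rest on values near background in the first sort and bound nothing. Both genes passed the filter on dim probes only through CD34- CD103-, where they are high, so their calls are no support for a difference between the sorts. Rhd was the only called gene of 24 globin and red cell membrane genes, where 0.187% of all genes were called. Of the 24, 10 rose in the first sort and 13 in the second and none fell. Among all genes, 2.55% rose and 2.07% fell in the first sort and 5.45% rose and 6.58% fell in the second.

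The remaining lists held few or no called double differences, where 0.187% of all genes were called. For the steps, 2.55% of all genes rose and 2.07% fell in the first sort, and 5.45% rose and 6.58% fell in the second. Of 25 heme and iron genes, 6 rose and 1 fell in the first sort and 11 rose in the second, and no double difference was called, against 0.187% of all genes. Of 29 genes of the immediate early and heat shock responses, 7 rose in the first sort and 15 in the second, none fell, and no double difference was called; Fos was at 2.55 and 1.80 and Egr1 at 2.08 and 1.72. No replication or mitosis gene of 29 was called in the first sort, 4 fell in the second, and no double difference was called. Spi1, the myeloid factor PU.1, was at -0.52 and -0.54, and Cebpa, a factor of granulocyte progenitors, fell by 1.14 and 0.96 (double difference -0.18, adjusted p = 1).

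Markers of other cell types moved with some of these results. The summed level of the 9 mast cell and basophil markers on the array, in multiples of the array's 75th percentile, was 168 to 238 in CR Sca1lo and 636 to 909 in EryCP, and 257 to 298 and 744 to 793 in the second sort. That of 5 neutrophil markers was 299 to 443 and 54.4 to 90.2 in the first sort and 365 to 457 and 182 to 212 in the second, and Mpo makes up most of it, while Elane and Ltf did not pass the test in either sort. S100a8 and S100a9 went the other way and rose in both sorts, by 4.24 and 4.20 and by 4.49 and 4.70. Of the B cell and natural killer markers, Ebf1 and Ncr1 were above background on at most 1 array of any group. The part of these cell types in the differences between the sorts was not tested.

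**Figure D4:**
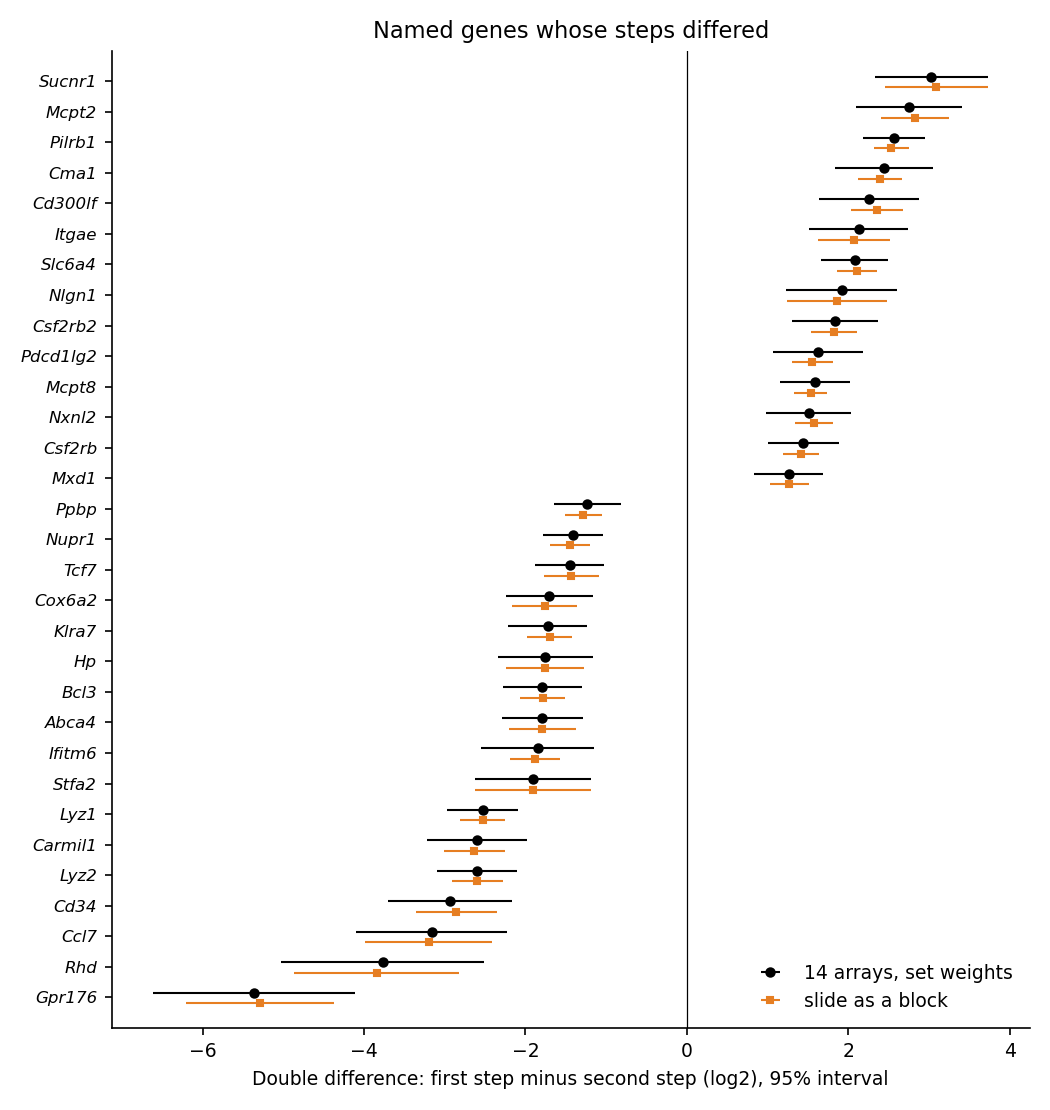
Double differences of the 31 named genes that were called, in log2 units, with 95% intervals from the fit without a block and from the fit with the slide as a block. All points of a gene lie on the same side of 0 in both fits.

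How firm the calls are differs between genes. Lyz1, Lyz2, Pilrb1 and Sucnr1 were each called in 34 of 36 other settings, and 12 of the 31 named called genes were called in at least 30. These 12 include Gpr176, which entered the fit only through CD34- CD103-, where it is high, and Cd34 and Itgae, the genes of gated markers. The settings refit the same arrays, so they are not independent of each other. With each array set fitted alone, which does not share the spread between sorts, 36 genes were called, 25 of them among the 52. Mcpt2, Sucnr1, Pilrb1 and Itgae were among these (adjusted p = 0.0005 for Mcpt2), while Ccl7, Hp, Csf2rb and Ifitm6 were not (adjusted p = 0.0929 for Ccl7). Of the 33 named genes without a called double difference, 28 were called in no setting.

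**Figure D5:**
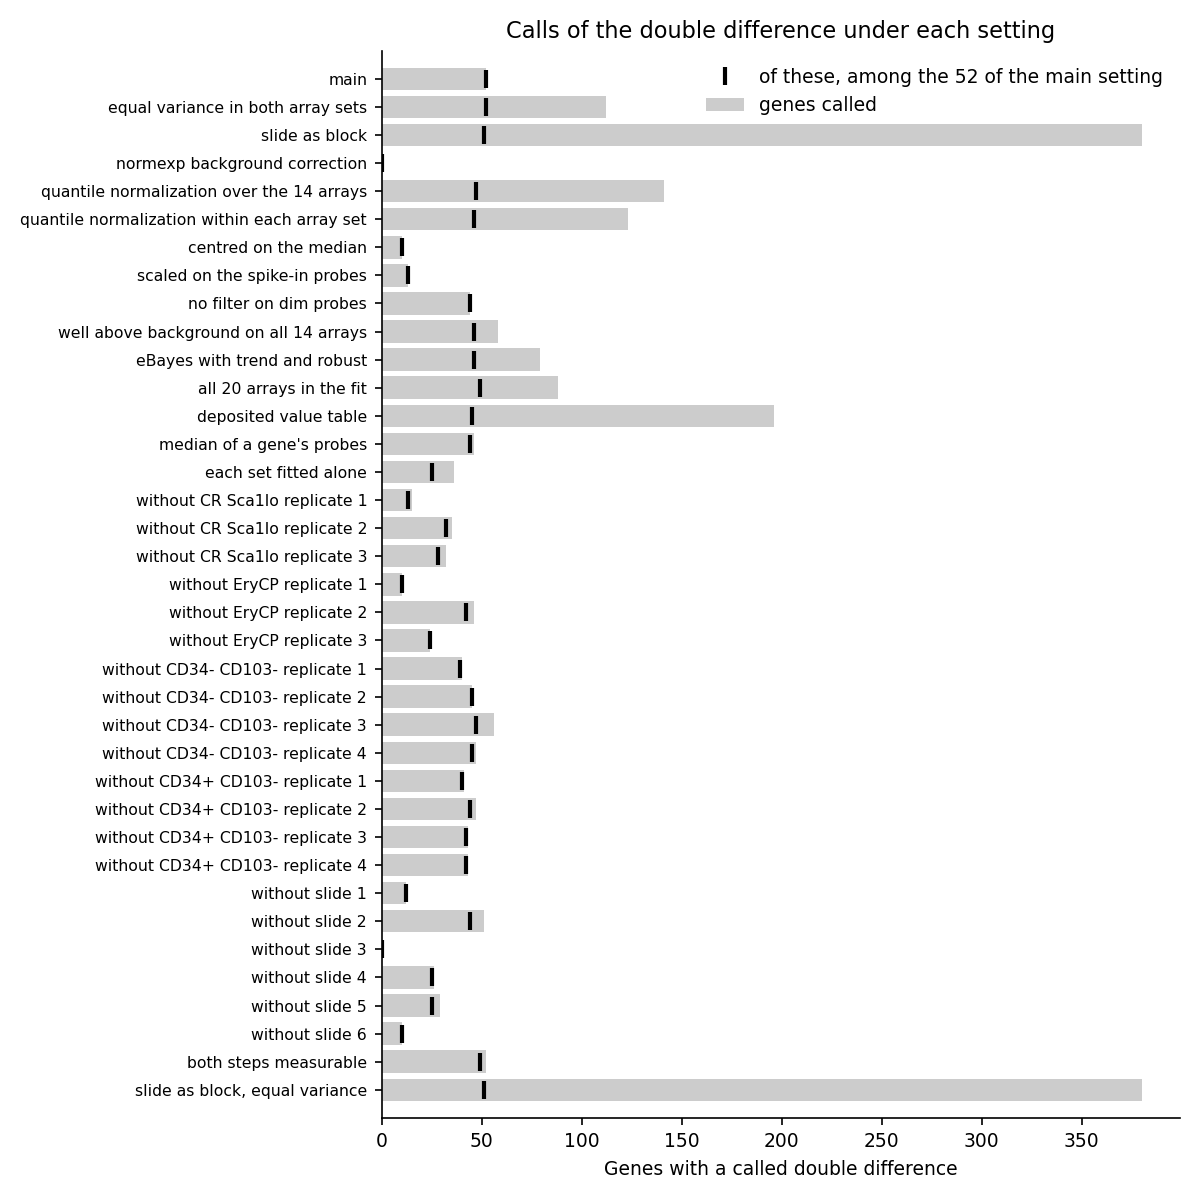
Number of genes called in the double difference under each setting. The count was 52 in the reported fit, 380 with the slide as a block, and 0 with normexp background correction or without slide 3.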

How the data were processed

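Total RNA of sorted EML cells was extracted with TRIzol, labelled with Cy3 and hybridised with spike-in RNA to arrays of 1 colour, per the labels' protocols. Per the file headers, the scanner files as deposited give the intensity of each spot, made by Agilent Feature Extraction, version 10.1.1.1 for the first sort and 10.7.1.1 for the second, including the background-subtracted processed signal. In the deposited series table, log2 values of unstated scale and centring are given, with column medians of 7.19 to 7.29, and was used as an alternative only. Groups were taken from sample titles; 6 arrays of another array set were not used.

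Of 45018 spots, 1639 control spots and those marked as uneven or outlying were left out, and 0 were saturated. The log2 processed signal was centred on each array's 75th percentile, and repeated spots were averaged per probe. A probe was kept when it was well above background on every array of at least 1 group, with at least 0.5 of its spots above. Of 41174 probes, 27071 were named through RefSeq accessions (GRCm38.p6, used for names and promoters) and 14103 were unnamed here. For a gene with several probes the one with the highest mean was taken, which left 27735 genes, 17007 with a symbol.

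The 14 arrays were fitted together with limma 3.58.1 (lmFit, arrayWeights with 1 variance per array set, eBayes, 2-sided) in R 4.3.3, with version 1.17.8 of data.table. Calls were made in each comparison at an adjusted p (Benjamini-Hochberg) under 0.05. These computations were tested on simulated data: estimates were unbiased, but the share of unchanged genes among the simulated calls exceeded the nominal rate, so calls near the threshold are optimistic. The number of arrays limits the precision, with a median SE of 0.35 for the double difference. A lower bound of a fold was taken against, per array, the higher of the probe's own signal and the lowest signal well above background.

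Named genes were a fixed set of 31, the highest and lowest called double differences, genes called in opposite directions, genes with large steps of like size in both sorts, and up to 3 called members of each of 24 lists (488 genes tested of 520 symbols). The members and lists were chosen with earlier results of these data known. Alternatives covered the variance model, slide as a block, background correction, scaling, filters, probe choice, the deposited table, and leaving out arrays and slides; the filter for both steps measurable and the slide block with equal variance were chosen after seeing the data. Figures were drawn with matplotlib 3.10.9 and pandas 2.3.3 in Python 3.11.15.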

Additional observations from a re-analysis of the deposited data

Results flagged for a closer look

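Named genes whose steps differed between the sorts by the test of the double difference itself are given here with that value (log2, first step minus second step). Above 0 were Sucnr1 at 3.03, Mcpt2 at 2.75, Pilrb1 at 2.57, Cma1 at 2.44, Cd300lf at 2.26, Itgae at 2.13, Slc6a4 at 2.08, Nlgn1 at 1.92 (its starting groups were near background), Csf2rb2 at 1.84, Pdcd1lg2 at 1.62, Mcpt8 at 1.59, Nxnl2 at 1.51, Csf2rb at 1.44 and Mxd1 at 1.26. Below 0 were Ppbp at -1.23, Nupr1 at -1.41, Tcf7 at -1.45, Cox6a2 at -1.70, Klra7 at -1.73, Hp at -1.75, Bcl3 at -1.79, Abca4 at -1.79, Ifitm6 at -1.85, Stfa2 at -1.91, Lyz1 at -2.53, Carmil1 at -2.60, Lyz2 at -2.60, Cd34 at -2.94 and Ccl7 at -3.16. The fitted values of Rhd at -3.77 and Gpr176 at -5.36 also passed the threshold, but both genes entered the fit only through CD34- CD103-, the group where they are high, and were near background in the first sort, so these calls are not evidence of a difference.

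Arrays of the same slide gave like values for those that moved oppositely. Within slides Lyz2 changed by -1.28 to -0.95 in the first sort and by 1.33 to 1.61 in the second, and Nupr1 by -1.28 to -0.94 and by 0.35 to 0.43. Within slides Mcpt2 rose by 9.16 to 9.51 and by 6.23 to 6.84, Sucnr1 by 4.15 to 5.13 and by 1.23 to 2.04, and Itgae by 3.41 to 3.82 and by 1.47 to 1.71. For Cd34 the within-slide changes were -4.99 to -4.27 and -2.17 to -1.55.

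Of 128 groups of 4 arrays examined among the named genes, 4 held an array that stood apart from the other 3, and chance alone sets apart about 1 in 20 groups. Cd34 was at 4.59 on CD34- CD103- 3, against 5.17 to 5.25 on the other 3 arrays of the group. Kit was at 4.28 on CD34- CD103- 1, against 4.63 to 4.65. Mpo was at 7.59 on the same array, against 7.35 to 7.39. Tmem9 was at -0.43 on CD34- CD103- 4, against -0.21 to -0.17. Leaving out CD34- CD103- 3 left 56 called double differences, 47 of them among the 52.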

How the results depend on the processing

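The double difference called 52 genes, the first step 1280 and the second 3336. In that order, the counts were 112, 2580 and 1664 with equal variance in both array sets, 380, 5719 and 4210 with the slide as a block, and 380, 5767 and 4179 with both. They were 0 (291 at an unadjusted p under 0.05), 152 (76.3% higher) and 2014 with normexp, which moved the median of all genes to -0.43, -0.59 and -0.16. They were 141, 2108 and 2970 with quantile normalization over the 14 arrays, 123, 2273 and 2931 within each set, and 10 (40% higher), 460 (66.1% higher) and 2166 centred on the median. Scaled on spike-in probes they were 13, 528 and 5120, with 61.5%, 58.5% and 13% higher and medians of all genes of 0.17, -0.12 and -0.28. In the deposited table they were 196, 3054 and 2835. For the double difference alone, 79 genes were called with trend and robust, 88 with 20 arrays, and 36 with each set fitted alone (38.9% higher). Leaving out 1 array gave 10 (without EryCP 1) to 56 (without CD34- CD103- 3) double differences, with 15, 32 and 24 without CR Sca1lo 1, CR Sca1lo 3 and EryCP 3. It gave 687 (without CR Sca1lo 1) to 1245 first steps, with 842, 707 and 846 without CR Sca1lo 2, EryCP 1 and EryCP 3. Without slides 1 and 3 the double difference called 12 and 0 genes (736 and 317 at an unadjusted p under 0.05) and the first step 654 and 278. Without slides 4, 5 and 6 the double difference called 26, 29 and 10 and the second step 2213, 1615 and 2221. Fewer arrays widen the intervals by construction; the cause of the other changes was not tested. The 52 kept their sign in every alternative that held them, except that Nlgn1 was at -0.69 in the deposited table (adjusted p = 0.552). The calls were within 1.5 times without a filter on dim probes, with all 14 arrays above background, with the median probe and with both steps measurable. By replicate number, no paired analysis was possible because the numbers follow accession order and pair no samples; arrays that share a slide were compared in the slide block given above. Genes near background, such as Gpr176, Rhd and Nlgn1, are limited by signal.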
